A study of Homo sapiens with 4 samples.

Results

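The BCL2 family is the set of proteins that decides whether the outer mitochondrial membrane stays closed or is opened during apoptosis. In all, 10 member genes were examined here in A549 cells that had received either strand of pre-*miR-486*. Of these, 4 encode anti-apoptotic proteins (*BCL2*, *BCL2L1*, *BCL2L2* and *BCL2A1*) and 6 encode pro-apoptotic proteins (*BAK1*, *BCL2L11*, *BID*, *BIK*, *BMF* and *BAD*). The members were chosen by name, with earlier results of these data known. Every probe whose RefSeq accession belonged to one of these genes was taken. This gave 16 of the 31104 named probes on the array and 10 of the 22439 named genes. Of the 16 probes, 15 were well above background on all 4 arrays.

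Anti-apoptotic members hold the pore-forming proteins BAK and BAX inactive and also bind the BH3-only proteins. BH3-only proteins such as BIM, BID, BIK, BMF and BAD sense growth factor loss, DNA damage, detachment or other stress, and they bind the anti-apoptotic members or activate BAK and BAX directly. Once BAK or BAX opens the outer membrane, cytochrome c enters the cytosol, the apoptosome forms and caspases are activated. In lung adenocarcinoma the balance between these groups is known to influence how cells respond to targeted drugs and chemotherapy.

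Gene expression was measured on 4 one-color Agilent microarrays of A549, an established human lung adenocarcinoma cell line. One array came from cells transfected with *miR-486-5p*, the guide strand, and 1 from cells transfected with *miR-486-3p*, the passenger strand, at 10 nM in the study's reagent list. The mock group had 2 arrays, of cells given the transfection reagent (Lipofectamine RNAiMAX) without any miRNA. No array of a control miRNA was included, so the presence of any small RNA duplex and the sequence of that duplex cannot be told apart. The hours between transfection and RNA extraction for the arrays were not given in the sources used here, and nothing in the labels said whether the mock arrays were separate cultures. The p-values therefore measure the spread between the 2 mock arrays, which may be technical, and each transfected array was assumed to vary as these do.

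On the 4 arrays, 30690 to 31516 of 58201 probes were well above background, and no spot was saturated. The array signal at the 75th percentile, by which each array was scaled, was between 93.1 (*miR-486-3p*) and 114 (both mock arrays). All arrays came from 1 slide and 1 scan. Of 6 epithelial markers, *KRT7*, *KRT8*, *KRT18* and *KRT19* were well above background on all 4 arrays, *EPCAM* was on 2 and *CDH1* was on none. Their summed normalized signal, by the brightest probe of each gene, was 138 (*miR-486-5p*), 145 (*miR-486-3p*), 199 (mock 1) and 196 (mock 2). *KRT18* made up most of each sum, at 113, 127, 172 and 168 in the same order. *KRT8* stood at 6.7, 4.12, 10.7 and 10.9, *KRT7* at 18.1, 14.0, 16.2 and 16.4, and *KRT19* at 0.0985, 0.267, 0.199 and 0.192. These markers did not all move alike. Of 7 markers of immune, endothelial and fibroblast cells, *PTPRC*, *CD3E*, *CD14* and *CDH5* were well above background on all 4 arrays, *COL1A1* was on 2, and *PECAM1* and *COL3A1* were on none. Their summed normalized signal was 1.23 (*miR-486-5p*), 1.65 (*miR-486-3p*), 1.00 (mock 1) and 0.951 (mock 2). In this last list *CD14* stood at 0.289 (*miR-486-5p*), 0.783 (*miR-486-3p*), 0.161 (mock 1) and 0.174 (mock 2). In the same order *PTPRC* stood at 0.48, 0.496, 0.344 and 0.308. *CDH5* and *COL1A1* were below both mock arrays with *miR-486-3p*. *CDH5* stood at 0.348, 0.222, 0.383 and 0.338, and *COL1A1* at 0.0243, 0.0318, 0.0442 and 0.0486. The part of these marker shifts in the results for the BCL2 family was not tested.

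Promoter sequence was available for 8 of the 10 members, from 250 bases before to 50 bases after the start of the gene (RefSeq, GRCh38.p14). These windows were searched on both strands for 4 motifs, which were picked with earlier results of these data known. The motifs were the GC box (GGGCGG), a FOXO element (GTAAACA), the E-box (CACGTG) and E2F elements (TTCCCGC or TTGGCGC), and no matches of different motifs overlapped. A GC box was present in 5 of the 8 promoters (*BAK1*, *BCL2L11*, *BID*, *BMF* and *BAD*), beside 44.6% of all 27305 promoters of this length. The FOXO element was found only in *BCL2L11* among the 8 (3.41% of all promoters), an E2F element only in *BMF* (9.33%), and the E-box in none of the 8 (7.43%). The G+C content of the 8 windows ran from 41.0% (*BCL2A1*) to 74.7% (*BCL2L11*), beside a median of 58.3% over all promoters. Stretches of 30 bases are shown for 4 pro-apoptotic genes for which limma called at least 1 probe on the *miR-486-3p* array, *BMF*, *BAK1*, *BCL2L11* and *BID*. The motif is in capitals, each sequence runs 5′ to 3′ on the strand of the gene, and CCGCCC is the GC box read on the other strand. A match describes the letters and not a bound factor.
BMF, E2F element, minus strand, chr15:40108954-40108983: ccagcccgggacTTGGCGCttcactcgcca
BMF, GC box, minus strand, chr15:40108907-40108936: tgacgcgcagggGGGCGGggcctcatcagc
BAK1, GC box, minus strand, chr6:33580337-33580366: ggtggggaaagtGGGCGGgacatgctcctg
BCL2L11, FOXO element, plus strand, chr2:111120679-111120708: agagttactccgGTAAACAcgccagggacg
BID, GC box, minus strand, chr22:17774581-17774610: gctgccggctccCCGCCCcgctccacagcc

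Values are given as normalized signal, the processed signal of a probe divided by the 75th percentile of its array. Normalized signals of different probes cannot be set against each other, because probes differ in how well they hybridize. The change after each strand is the log2 signal of that array minus the mean log2 signal of the 2 mock arrays. A gene with several probes has the mean of its probes. The limma test was fitted over 33498 probes with Benjamini-Hochberg adjustment at 0.05, and "rose" and "fell" are used only for probes that passed it. In these bulk samples, fewer cells of a type and less RNA per cell cannot be told apart.

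**Figure D1:**
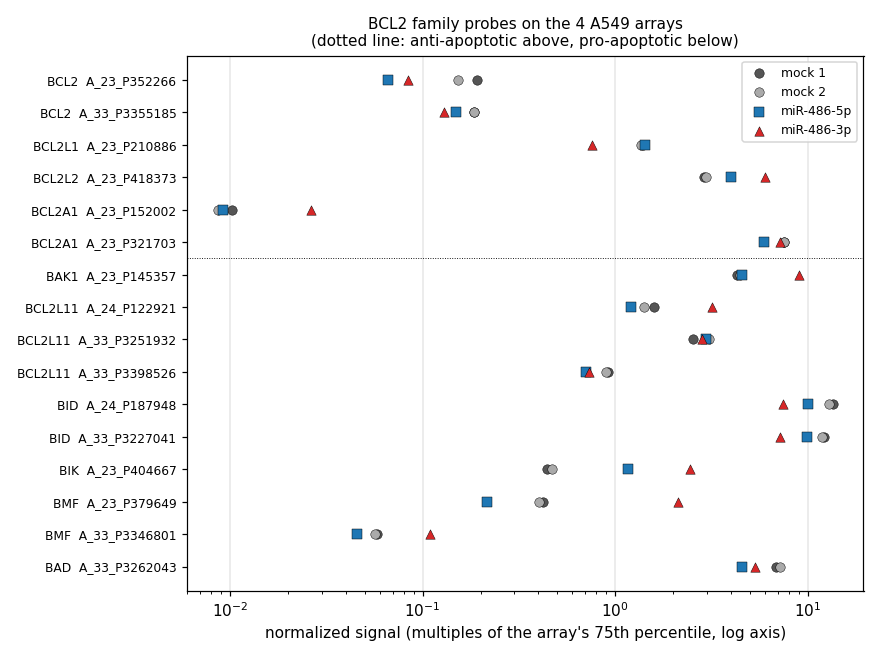
Normalized signal (multiples of the array's 75th percentile, log axis) of the 16 BCL2 family probes, with circles for the mock arrays, squares for *miR-486-5p* and triangles for *miR-486-3p*. Each symbol is 1 array, so there are no error bars. The triangle lies furthest to the right of the other symbols for the *BMF* probe A_23_P379649. It also lies to the right for the other *BMF* probe, *BIK*, *BAK1*, *BCL2L2*, the *BCL2L11* probe A_24_P122921 and the *BCL2A1* probe not above background. It lies to the left for *BCL2L1*, both *BID* probes and the *BCL2* probe A_33_P3355185.

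Among the anti-apoptotic genes, *BCL2* and *BCL2L1* were lower with *miR-486-3p*, *BCL2L2* was higher and *BCL2A1* was near the mock level. With *miR-486-5p* no probe of these 4 genes passed the test. *BCL2* encodes the founding member of the family, first found at a translocation in lymphoma. Its probe A_23_P352266 read 0.0658 (*miR-486-5p*), 0.0844 (*miR-486-3p*), 0.192 (mock 1) and 0.153 (mock 2). Its other probe, A_33_P3355185, which is listed under another transcript of the gene, read 0.149 (*miR-486-5p*), 0.129 (*miR-486-3p*), 0.186 (mock 1) and 0.184 (mock 2). Both strand arrays lay under both mock arrays on both probes. The first probe fell by 1.02 on the log2 scale with *miR-486-3p* (SE 0.193, limma adjusted p = 0.0358), and the second fell by 0.52 (limma adjusted p = 0.0296). With *miR-486-5p* the log2 differences were −1.38 (SE 0.193, limma adjusted p = 0.0559) and −0.31 (limma adjusted p = 0.120), neither past the threshold. As a gene, *BCL2* was at 55.6% of mock with *miR-486-5p* (log2 difference −0.85) and at 58.6% with *miR-486-3p* (−0.77). These are dim probes, and normexp background correction, which adds an offset of 50 to every signal, left log2 differences of only −0.10 and −0.02.

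*BCL2L1* encodes BCL-xL, which binds both BAK and BIM. Its probe read 1.43 (*miR-486-5p*), 0.760 (*miR-486-3p*), 1.40 (mock 1) and 1.37 (mock 2). The *miR-486-3p* array stood alone below the other 3, at 55.0% of mock (log2 difference −0.86, SE 0.0887, limma adjusted p = 0.0138). For *miR-486-5p* the log2 difference was 0.05 with a 95% interval of −0.25 to 0.35 (limma adjusted p = 0.703).

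*BCL2L2*, which encodes BCL-w, went the other way. The signal was 4.01 (*miR-486-5p*), 5.98 (*miR-486-3p*), 2.91 (mock 1) and 2.95 (mock 2), so both strand arrays lay above both mock arrays. It rose 2.04-fold with *miR-486-3p* (log2 difference 1.03, SE 0.0881, limma adjusted p = 0.0111). The log2 difference with *miR-486-5p* was 0.45 and did not pass (limma adjusted p = 0.0763).

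*BCL2A1* encodes A1, a short-lived protein induced by NF-κB. One of its probes, A_23_P152002, was not well above background on any array. The other, A_23_P321703, listed under the same transcript, read 5.94 (*miR-486-5p*), 7.22 (*miR-486-3p*), 7.54 (mock 1) and 7.51 (mock 2). The strand arrays lay below the mock arrays by small amounts, with log2 differences of −0.34 for *miR-486-5p* (limma adjusted p = 0.106) and −0.06 for *miR-486-3p* (95% interval −0.35 to 0.23, limma adjusted p = 0.595). With the dim probe included, the gene value for *miR-486-3p* was 0.71.

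Among the pro-apoptotic genes, the effector *BAK1* and the BH3-only genes *BIK* and *BMF* were higher with *miR-486-3p*, and *BID* was lower. With *miR-486-5p*, *BIK* was also higher, 1 of the 2 *BMF* probes was lower and *BAK1* stayed near mock. *BAK1* encodes BAK, which sits in the outer mitochondrial membrane and forms pores when activated. The signal was 4.56 (*miR-486-5p*), 8.97 (*miR-486-3p*), 4.30 (mock 1) and 4.47 (mock 2). The *miR-486-3p* array stood alone at 2.05-fold above mock (log2 difference 1.03, SE 0.0919, limma adjusted p = 0.0116). The *miR-486-5p* array differed from mock by 0.06 on the log2 scale, with a 95% interval of −0.25 to 0.37 (limma adjusted p = 0.671).

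*BIK* encodes a BH3-only protein of the endoplasmic reticulum membrane. Its signal was 1.17 (*miR-486-5p*), 2.44 (*miR-486-3p*), 0.442 (mock 1) and 0.468 (mock 2). Both strand arrays lay above both mock arrays, and *miR-486-3p* was the higher of them. *BIK* rose 2.57-fold with *miR-486-5p* (log2 difference 1.36, SE 0.0972, limma adjusted p = 0.0475) and 5.36-fold with *miR-486-3p* (log2 difference 2.42, SE 0.0972, limma adjusted p = 0.00762). Over 9 other ways of processing, the log2 difference stayed between 0.84 and 1.41 with *miR-486-5p* and between 1.58 and 2.50 with *miR-486-3p*.

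*BMF* encodes a BH3-only protein that is held at the actin cytoskeleton and released on detachment. The probe A_23_P379649 read 0.217 (*miR-486-5p*), 2.11 (*miR-486-3p*), 0.423 (mock 1) and 0.402 (mock 2). A second probe of the same transcript, A_33_P3346801, read 0.0454 (*miR-486-5p*), 0.109 (*miR-486-3p*), 0.0577 (mock 1) and 0.0563 (mock 2). On both probes the order of the arrays was the same, with *miR-486-5p* under and *miR-486-3p* over both mock arrays. The first probe rose 5.13-fold with *miR-486-3p* (log2 difference 2.36, SE 0.0958, limma adjusted p = 0.00762) and the second 1.91-fold (log2 difference 0.93, limma adjusted p = 0.0126). With *miR-486-5p* the first probe fell by 0.93 on the log2 scale (SE 0.0958, limma adjusted p = 0.0489), while the second differed by −0.33 (limma adjusted p = 0.114). As a gene, *BMF* differed on the log2 scale by −0.63 (*miR-486-5p*) and 1.65 (*miR-486-3p*). After normexp background correction the gene value for *miR-486-5p* was −0.12, and the lowest value for *miR-486-3p* over 9 other ways of processing was 0.91.

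*BCL2L11* encodes BIM, a BH3-only protein that binds every anti-apoptotic member and is induced by FOXO factors. Its 3 probes gave different answers. The probe A_24_P122921 read 1.21 (*miR-486-5p*), 3.18 (*miR-486-3p*), 1.60 (mock 1) and 1.41 (mock 2), and it rose 2.12-fold with *miR-486-3p* (log2 difference 1.08, SE 0.131, limma adjusted p = 0.0172). A_33_P3251932, listed under another transcript of the gene, read 2.95 (*miR-486-5p*), 2.81 (*miR-486-3p*), 2.54 (mock 1) and 3.07 (mock 2). On that probe both strand arrays lay between the mock arrays, and the log2 difference for *miR-486-3p* was 0.01, with a 95% interval of −0.55 to 0.56. A_33_P3398526, listed under the same transcript as A_33_P3251932, read 0.705 (*miR-486-5p*), 0.730 (*miR-486-3p*), 0.917 (mock 1) and 0.893 (mock 2), with both strand arrays below both mock arrays. Its log2 differences were −0.36 for *miR-486-5p* (limma adjusted p = 0.103) and −0.31 for *miR-486-3p* (limma adjusted p = 0.0775). On the log2 scale the mean over the 3 probes was −0.20 (*miR-486-5p*) and 0.26 (*miR-486-3p*), neither past 0.5.

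*BID* encodes the BH3-only protein that caspase-8 cleaves, which links death receptors to mitochondria. The probe A_24_P187948 read 10.1 (*miR-486-5p*), 7.47 (*miR-486-3p*), 13.5 (mock 1) and 12.9 (mock 2). The probe A_33_P3227041 read 9.87 (*miR-486-5p*), 7.20 (*miR-486-3p*), 12.2 (mock 1) and 11.9 (mock 2). Both probes gave the same order, with *miR-486-3p* lowest and *miR-486-5p* between it and the mock arrays. With *miR-486-3p* they fell by 0.82 (SE 0.0954, limma adjusted p = 0.0164) and by 0.74 (limma adjusted p = 0.0171) on the log2 scale, which left the gene at 58.1% of mock. The differences for *miR-486-5p*, −0.39 (limma adjusted p = 0.0995) and −0.29 (limma adjusted p = 0.135), did not pass.

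*BAD* encodes a BH3-only protein that is kept inactive once survival kinases such as AKT have phosphorylated it. Its signal was 4.55 (*miR-486-5p*), 5.33 (*miR-486-3p*), 6.88 (mock 1) and 7.22 (mock 2), lower on both strand arrays than on both mock arrays. The log2 differences of −0.63 for *miR-486-5p* (SE 0.0948, limma adjusted p = 0.0589) and −0.40 for *miR-486-3p* (limma adjusted p = 0.0531) did not pass the test. Scaling by the median signal gave −0.78 for *miR-486-3p*.

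**Figure D2:**
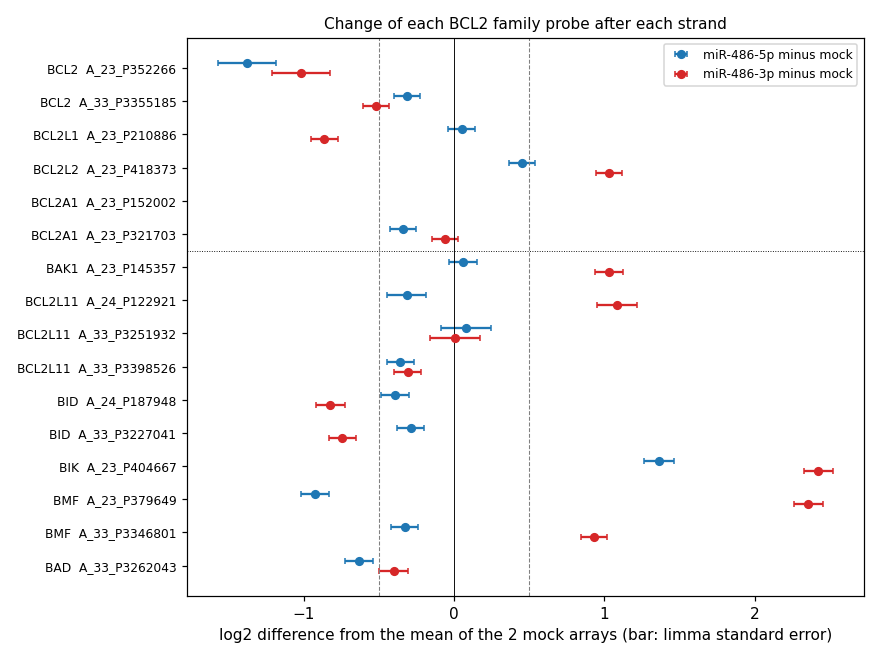
Log2 difference of each BCL2 family probe from the mean of the 2 mock arrays for *miR-486-5p* (blue) and *miR-486-3p* (red), with bars for the limma standard error and dashed lines at −0.5 and 0.5. The longest shifts are those of *BIK* and *BMF* with *miR-486-3p*, at 2.42 and 2.36; the probe of *BCL2A1* that was not above background has no value.

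Counted over the family, *miR-486-5p* left 3 of the 10 members below −0.5 on the log2 scale (*BCL2*, *BMF* and *BAD*), beside 15.9% of all genes measured, and 1 above 0.5 (*BIK*), beside 13.8%. The median of the 10 log2 differences was −0.27, and that of all genes was 0.03. By limma 1 member had a probe that fell (*BMF*), beside 6.66% of all genes, and 1 rose (*BIK*), beside 3.58%, which made 2 of 10 members beside 10.2% of all genes in either direction. With *miR-486-3p*, 3 members were below −0.5 (*BCL2*, *BCL2L1* and *BID*), beside 27.2% of all genes, and 4 were above 0.5 (*BCL2L2*, *BAK1*, *BIK* and *BMF*), beside 30.4%. Their median was 0.10, beside 0.06 for all genes. By limma 3 members fell, beside 31.6% of all genes, and 5 had a probe that rose, *BCL2L11* by 1 of its 3 probes, beside 31.9%. A change in 8 of 10 members thus stands beside 62.2% of all genes called in either direction on this array. The 2 mock arrays differed from each other by more than 0.5 in 1.88% of genes. Both comparisons use the same mock arrays, so an error in these would enter both.

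The adjusted p-values for *miR-486-5p* lay close to the threshold, the smallest over all probes being 0.0475. On the log2 values that the authors deposited, limma called no probe for *miR-486-5p* after adjustment (12758 probes at an unadjusted p under 0.05), while the values of all 10 members stayed on the same side of −0.5 and 0.5.

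The design then allows pro-apoptotic members to be set against anti-apoptotic ones. With *miR-486-3p* the median log2 difference was −0.42 over the 4 anti-apoptotic members and 0.65 over the 6 pro-apoptotic members, a distance of 1.06. This distance was between 0.61 and 1.14 over 9 other ways of processing. It holds for these 10 members alone, which were chosen with earlier results of these data known. When the other family genes with a known role were added (*MCL1* and *BCL2L10* as anti-apoptotic, and *BAX*, *BOK*, *BBC3*, *PMAIP1* and *HRK* as pro-apoptotic), an alternative chosen after seeing the data, the direction turned. The median was then 0.10 over 6 anti-apoptotic genes, with *BCL2L10* at its bound, and −0.40 over 11 pro-apoptotic genes, a distance of −0.50 (−0.89 to −0.16 over the 9 ways of processing). Among the 10 members each group held exceptions, since *BCL2L2* rose among the anti-apoptotic members and *BID* fell among the pro-apoptotic ones. With *miR-486-5p* the medians were −0.14 (anti-apoptotic) and −0.27 (pro-apoptotic), a distance of −0.12, which was between −0.20 and −0.04 over the same alternatives. With the added genes they were 0.05 over 5 anti-apoptotic genes and −0.20 over 11 pro-apoptotic genes. No test was made of these distances, because the genes of a group are not replicates. Within the pro-apoptotic group, the 5 BH3-only members spanned −0.78 (*BID*) to 2.42 (*BIK*) with *miR-486-3p* and −0.63 (*BAD*) to 1.36 (*BIK*) with *miR-486-5p*.

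**Figure D3:**
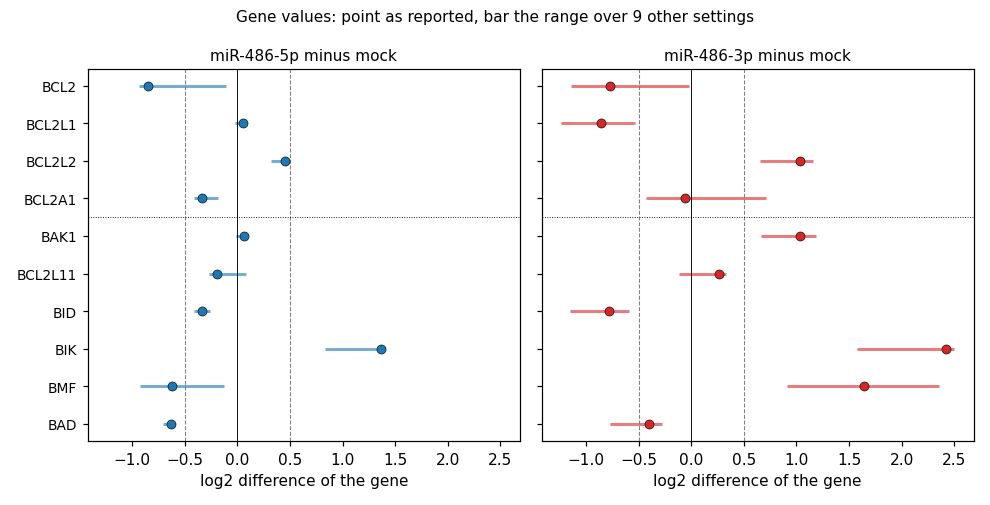
Log2 difference of each member gene from mock for *miR-486-5p* (left) and *miR-486-3p* (right), with points for the values reported and bars for the range over 9 other ways of processing; dashed lines mark −0.5 and 0.5. With *miR-486-3p* the bars of *BIK*, *BMF*, *BAK1* and *BCL2L2* stay above 0.5, and those of *BCL2L1* and *BID* stay below −0.5. With *miR-486-5p* the bar of *BIK* stays above 0.5 and that of *BAD* below −0.5. The bars of *BCL2* with both strands reach near 0.

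Set against each other, the strand arrays differed most at *BMF*. Its probe A_23_P379649 was 9.74-fold higher with *miR-486-3p* than with *miR-486-5p* (log2 difference 3.28, limma adjusted p = 0.0119), and A_33_P3346801 differed by 1.26 (limma adjusted p = 0.0142). *BIK* was 2.08-fold higher with *miR-486-3p* (limma adjusted p = 0.0184), *BAK1* differed by 0.97 on the log2 scale (limma adjusted p = 0.0190) and *BCL2L2* by 0.58 (limma adjusted p = 0.0370). *BCL2L1* was the one member lower with *miR-486-3p* past both limits, with a log2 difference of −0.91 (limma adjusted p = 0.0196). In all, 4 members were above 0.5, beside 28.6% of all genes, and 1 was below −0.5, beside 26.4%. By limma 5 members had a probe higher with *miR-486-3p*, beside 26.7% of all genes, and 1 was lower, beside 27.3% (53.1% in either direction). The fifth was *BCL2L11*, whose probe A_24_P122921 differed by 1.40 (limma adjusted p = 0.0187) while its other probes differed by −0.07 and 0.05.

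No difference between the strands was detected at *BCL2*, where the probes differed by 0.36 (limma adjusted p = 0.281) and −0.21 (limma adjusted p = 0.202). The strand difference was 0.28 at *BCL2A1* (limma adjusted p = 0.123) and 0.23 at *BAD* (limma adjusted p = 0.194). For *BID* it was −0.43 (limma adjusted p = 0.0696) and −0.45 (limma adjusted p = 0.0558). This comparison rests on 1 array against 1, with the spread taken from the mock arrays. When arrays were scaled by the median signal, the *BCL2L2* difference was 0.28.

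The other genes of the family were taken from a list of 13. For *miR-486-5p*, 11 were measured, with 3 below −0.5 (beside 15.9% of all genes), 1 above 0.5 (beside 13.8%) and a median of −0.09. For *miR-486-3p*, 12 were measured, with 5 below (beside 27.2% of all genes), 3 above (beside 30.4%) and a median of −0.26. *BCL2L14* was not well above background on any array. The BH3-only genes *BBC3* (PUMA) and *PMAIP1* (NOXA) differed most with *miR-486-5p*. *BBC3* read 2.90 (*miR-486-5p*), 3.58 (*miR-486-3p*), 5.90 (mock 1) and 6.04 (mock 2). It fell by 1.04 with *miR-486-5p* (limma adjusted p = 0.0475) and by 0.74 with *miR-486-3p* (limma adjusted p = 0.0173) on the log2 scale. *PMAIP1* read 1.06 (*miR-486-5p*), 2.98 (*miR-486-3p*), 3.23 (mock 1) and 2.98 (mock 2). It was low on the *miR-486-5p* array alone, where it fell by 1.55 (limma adjusted p = 0.0475), and its log2 difference for *miR-486-3p* was −0.06 (limma adjusted p = 0.678). *HRK*, the remaining BH3-only gene of the list, read 2.27 (*miR-486-5p*), 1.28 (*miR-486-3p*), 2.67 (mock 1) and 2.29 (mock 2). *HRK* fell by 0.96 with *miR-486-3p* (limma adjusted p = 0.0246) and differed by −0.12 with *miR-486-5p*.

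Of the effectors, *BOK* read 4.18 (*miR-486-5p*), 1.39 (*miR-486-3p*), 3.76 (mock 1) and 3.94 (mock 2) and fell by 1.47 on the log2 scale with *miR-486-3p* (limma adjusted p = 0.00865). The 2 probes of *BAX*, the partner of *BAK1* in pore formation, did not give the same result. A_33_P3341144 fell by 1.03 with *miR-486-3p* (limma adjusted p = 0.0241), whereas A_23_P208706 differed by −0.06 (limma adjusted p = 0.826), and on the latter the mock arrays differed from each other by −0.39. *MCL1*, a major anti-apoptotic member in solid tumors, had a log2 normalized signal of 3.35 (*miR-486-5p*), 3.33 (*miR-486-3p*), 3.06 (mock 1) and 3.07 (mock 2). Both strand arrays lay above the mock arrays, with log2 differences of 0.29 (95% interval −0.00 to 0.58, limma adjusted p = 0.133) and 0.26 (limma adjusted p = 0.0990). *BCL2L10*, another anti-apoptotic member, exceeded background on only 1 array, that of *miR-486-3p*. It was at least 3.49-fold higher there, against the lowest signal above background on the mock arrays. No fold is given for *miR-486-5p*, where both sides were below background. The limma test (adjusted p = 0.00762 with *miR-486-3p*) does not refer to this bound. It used the mock signals as read, 0.00949 (mock 1) and 0.0108 (mock 2), which were below background.

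The remaining genes of this list have less settled roles or act in mitophagy. *BCL2L12* differed by −0.09 with *miR-486-5p*, and with *miR-486-3p* both of its probes fell (gene value −1.05 on the log2 scale). *BCL2L15* and *BNIP3L* had log2 differences of 0.90 and 0.68 with *miR-486-3p*, where both probes of each rose, and of 0.21 and 0.21 with *miR-486-5p*, where none did. *BNIP3*, a hypoxia-inducible mitophagy receptor, differed by −0.99 with *miR-486-5p* (limma adjusted p = 0.0503) and by −0.46 with *miR-486-3p* (limma adjusted p = 0.0535). *BCL2L13* had log2 differences of 0.51 and 0.05, and none of its 3 probes passed the test on either strand. By limma, 2 of 12 tested genes of the list had a probe that fell with *miR-486-5p*, beside 6.66% of all genes. In 1, *BCL2L10* below background, a probe was called higher, beside 3.58%. With *miR-486-3p* 5 had a probe that fell, beside 31.6% of all genes, and 3 a probe that rose, beside 31.9%.

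Downstream of the mitochondrion, 20 genes of the apoptosome, the caspases and their inhibitors were measured. With *miR-486-5p* 3 were below −0.5 (beside 15.9% of all genes) and 2 above 0.5 (beside 13.8%), with a median of −0.18. Here limma called 1 lower (beside 6.66%) and 1 higher (beside 3.58%). The lowest were *BIRC5* (survivin, an inhibitor of apoptosis that also acts in mitosis), which fell by 1.18 on the log2 scale (limma adjusted p = 0.0475), and *DFFA*, at −0.62 (limma adjusted p = 0.0867). The highest were *BIRC2* at 0.85 (limma adjusted p = 0.0501) and *XIAP*, both inhibitors of apoptosis, with *XIAP* at 0.84 and 1 of its 2 probes past the test (limma adjusted p = 0.0475). With *miR-486-3p* 9 genes were below −0.5 (beside 27.2% of all genes) and 5 above 0.5 (beside 30.4%), with a median of −0.38. Here limma called 10 lower (beside 31.6%) and 5 higher (beside 31.9%). *BIRC5* fell by 2.91 (limma adjusted p = 0.00762) and *BIRC3* fell by 1.25 (limma adjusted p = 0.0112).

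The death receptor list had 10 of 12 genes measured, since *FASLG* and *TNFSF10* were not well above background. The TRAIL receptor gene *TNFRSF10B* was the highest with both strands, at 0.91 with *miR-486-5p* (limma adjusted p = 0.0478) and 1.35 with *miR-486-3p* (limma adjusted p = 0.00873) on the log2 scale. After it with *miR-486-5p* came the adaptor gene *FADD* at 0.31 (limma adjusted p = 0.120), and the lowest were *CASP8* at −1.43 (limma adjusted p = 0.0697) and *TNFRSF1A* at −0.45 (limma adjusted p = 0.0857). The mock arrays differed by 0.46 at *CASP8*. With *miR-486-3p* the other TRAIL receptor gene, *TNFRSF10A*, fell by 1.02 (limma adjusted p = 0.0111), *TRADD* fell by 0.77 (limma adjusted p = 0.0158) and *RIPK1* rose by 0.64 (limma adjusted p = 0.0209). Over the list, 1 gene was below −0.5 (beside 15.9% of all genes) and 1 above 0.5 (beside 13.8%) with *miR-486-5p* (median −0.03). Here limma called 1 lower (beside 6.66%) and 1 higher (beside 3.58%). The gene called lower was *CASP10*, by 1 of its 2 tested probes, although its gene value was 0.19. For *miR-486-3p* the counts were 4 below (beside 27.2% of all genes) and 4 above (beside 30.4%), with a median of 0.12. Here limma called 5 lower (beside 31.6%) and 5 higher (beside 31.9%), with *CFLAR* in both counts because its 4 probes moved in different directions.

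Last, 13 genes of transcription factors known to act on BCL2 family promoters were read. With *miR-486-5p* 3 were below −0.5 (beside 15.9% of all genes) and 5 above 0.5 (beside 13.8%), with a median of 0.43. Here limma called 2 lower (beside 6.66%) and 1 higher (beside 3.58%). *E2F1* fell by 1.39 on the log2 scale (limma adjusted p = 0.0475) and the stress factor gene *ATF4* fell by 0.90 (limma adjusted p = 0.0486). *FOXO4* was highest at 1.53, with 1 of its 2 probes past the test (limma adjusted p = 0.0475), and *FOXO1* followed at 0.66 (limma adjusted p = 0.0599). With *miR-486-3p* 4 were below −0.5 (beside 27.2% of all genes) and 2 above 0.5 (beside 30.4%), with a median of −0.30. Here limma called 6 lower (beside 31.6%) and 3 higher (beside 31.9%). *MYC* fell by 3.33 and *E2F1* fell by 3.03 (limma adjusted p = 0.00762 for each). *FOXO3*, whose 3 probes all rose, stood at 0.79 (the highest limma adjusted p = 0.0316), and *FOXO1* rose by 0.62 (limma adjusted p = 0.0280). The arrays measured RNA, and neither protein nor cell death.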

How the data were processed

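The authors deposited, for each of the 4 arrays, the spot intensity on a linear scale from Agilent Feature Extraction 12.1.1.1, corrected for background by that software (genome build in the submitters' notes, hg19), and log2 values of every probe, whose normalization was not given in the sources used here. From the intensities, control spots and 50 to 72 outlier spots per array were left out, processed signals were divided by their array's 75th percentile and put on the log2 scale, and replicate spots were averaged. Probes were named through RefSeq accessions (31104 of 33080 matched). A probe entered a comparison if it exceeded background on the strand array or on both of the mock arrays. A side below background was set to the lowest signal above background on its array, and the difference is then a bound. For limma, signals below background were kept as read. limma 3.58.1 (R 4.3.3; lmFit, eBayes) was fitted to all 4 arrays in 3 groups, on 33498 probes. The residual degree of freedom was 1 and the prior had 1.75 degrees of freedom with an SD of 0.0893. The fit was also tested on simulated data in which all arrays had the same spread. That run could not check whether the strand arrays vary as the mock arrays do. Tables were made with Python 3.11.15, pandas 2.3.3 and numpy 2.4.6. The study's methods name no array test.

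The members, the lists and the motifs were chosen with earlier results of these data known. All members and all other family genes were named, and from each further list the 2 lowest and 2 highest measured genes for each strand. The values of some listed genes are not reported here, although the genes are included in the counts and medians. The alternatives were quantile normalization, median scaling, leaving out either mock array, normexp (offset 50), no filter, only probes above background on all arrays, the brightest probe, the log2 values of the authors, a limit of 1, an intensity trend and a t-test with equal variances. Adding other family genes of known role to the role groups was an alternative chosen after seeing the data. The number of arrays limits the precision.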

Additional observations from a re-analysis of the deposited data

How the results depend on the processing

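No member gene past 0.5 changed sign under any alternative run, and leaving out either mock array kept all counts of members past 0.5 on the log2 scale. Scaling by the median moved the median over all genes for *miR-486-3p* from 0.06 to −0.32 (from 0.03 to −0.05 for *miR-486-5p*), so values under it are to be read against that shift. Under it the medians for *miR-486-3p* were −0.79 (anti-apoptotic) and 0.27 (pro-apoptotic), those between the strands were −0.12 and 0.42 with 2 members lower, and limma called 3, 5 and 2 members lower (*miR-486-5p*, *miR-486-3p*, between the strands). With normexp, whose offset shrinks differences of dim probes by construction, 1 member was lower with *miR-486-5p*, the anti-apoptotic median for *miR-486-3p* was −0.079, the pro-apoptotic median between the strands was 0.54, and limma called 5 members lower and 2 higher for *miR-486-5p* and 2 lower between the strands. Without a filter the anti-apoptotic medians were −0.029 (*miR-486-3p*) and 0.33 (between the strands), and limma called 0 members lower and 0 higher for *miR-486-5p* (16345 probes at an unadjusted p under 0.05) and 3 higher between the strands. With only probes above background on all arrays, limma called 3 lower and 2 higher (*miR-486-5p*), 5 lower (*miR-486-3p*) and 2 lower (between the strands). The brightest probe gave an anti-apoptotic median of 0.037 between the strands. On the log2 values of the authors, limma called 0 lower and 0 higher for *miR-486-5p*. A limit of 1 left 0 members lower with either strand, and 0 lower and 2 higher between them. An intensity trend in limma gave 6 lower and 2 higher (*miR-486-5p*), 5 lower (*miR-486-3p*) and 2 lower (between the strands). A t-test with equal variances and Benjamini-Hochberg adjustment called 0 lower and 0 higher with either strand, with 5 (*miR-486-5p*) and 9 (*miR-486-3p*) of 15 member probes at an unadjusted p under 0.05. With all family genes of known role in the groups, chosen after seeing the data, the pro-apoptotic median for *miR-486-3p* reversed to −0.40 and the anti-apoptotic one was 0.10, the anti-apoptotic median for *miR-486-5p* was 0.051 and the pro-apoptotic median between the strands was 0.30. Except where the construction is named, the cause was not tested. Over all genes, limma called 1109 lower and 596 higher for *miR-486-5p*, against 2343 and 1090 (median scaling), 3845 and 3695 (normexp), 3099 and 2678 (probes above background on all arrays), 4170 and 3699 (intensity trend), and 0 without a filter, on the log2 values of the authors and by the t-test. The *miR-486-3p* counts were 5261 lower and 5309 higher, against 7574 and 3413 (median scaling), 5532 and 5311 (probes above background on all arrays) and 6161 and 6358 (intensity trend). The t-test gave 0 either way (10469 probes at an unadjusted p under 0.05). Between the strands limma called 4555 lower and 4443 higher. The alternatives gave 6422 and 3183 (median scaling), 5284 and 5883 (normexp), 3156 and 3184 (no filter), 5090 and 4667 (probes above background on all arrays) and 5817 and 5774 (intensity trend). No paired analysis was possible because each strand has 1 array. A slide block was not run, since there was 1 slide and 1 scan, and limma could not be run with 1 mock array, which leaves no residual degree of freedom. Signal over background limits the dim probes, among them those of *BCL2* and *BCL2A1* and the *BMF* probe A_33_P3346801.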
